A study of Mus musculus with 13 samples.

Results

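The proteasome subunit genes were described in alveolar macrophages, phagocytes that live on the surface of the lung's air sacs, of mice that drank metformin or vehicle and then received particulate matter (PM) or buffer into the airways. Members were all genes whose mouse symbol is Psma, Psmb, Psmc or Psmd followed by a number, without pseudogenes. This gave 39 of the 43430 genes in the deposited table. Of these, 36 are standard or tissue-specific subunits and chaperones of the cap, and the other 3 are the immunoproteasome genes Psmb8, Psmb9 and Psmb10, which are given apart. A low-count filter passed 35 of the 36 and all 3 immunoproteasome genes. Psmb11, the beta subunit of the thymoproteasome, did not pass, with 0 to 4 counts in a library. Psmc3ip shares the start of its symbol with a subunit but encodes a recombination factor and was left out. The 4 pseudogenes held 0 or 1 count in total.

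All animals were male C57Bl/6 mice aged 10 weeks. One arm drank metformin, a biguanide drug, at a dose of 100 mg/kg/day that began 24 h ahead of the instillation, and the other arm drank vehicle. Into the trachea went 10 µg of the NIST standard PM or phosphate-buffered saline (PBS), and alveolar macrophages were sorted by flow cytometry after another 24 h. The vehicle PBS group had 4 libraries and each of the other groups (vehicle PM, metformin PBS, metformin PM) had 3, each taken as a separate mouse. Libraries carry the group and the number in their titles. One dose and one time point of a single exposure were sampled, and RNA was measured, not proteasome protein or activity.

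The proteasome is a barrel-shaped protease, the 20S core, capped by a 19S particle that recognises ubiquitin chains, unfolds the tagged protein and feeds it into the barrel. The core has outer rings of alpha subunits (Psma), which form the gate, and inner rings of beta subunits (Psmb), of which Psmb5, Psmb6 and Psmb7 carry the chymotrypsin-like, caspase-like and trypsin-like active sites. The cap has a base of ATPases (Psmc) and scaffold and receptor subunits, and a lid with the deubiquitinase Psmd14 (both Psmd). In the immunoproteasome, Psmb8, Psmb9 and Psmb10 take the places of Psmb5, Psmb6 and Psmb7. Interferon-gamma is known to raise these 3 genes, and the altered cleavage favours peptides that MHC class I can present. The transcription factor NRF1 (gene Nfe2l1) is known to raise the standard subunit genes when proteasome activity is short.

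Libraries held 5.57 to 8.1 M counts (M for megacounts) assigned to genes, and the metformin PM group was the deepest, with 6.51 to 8.1 M. Values are CPM, a gene's count relative to the library total in megacounts, after scaling by the trimmed mean of M values.

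Markers of cell types moved with PM as well, counted here by edgeR's adjusted p under 0.05 with PM against PBS averaged over the arms (8.63% of all genes tested were called higher and 7.76% lower). Of 12 alveolar macrophage markers 6 were called higher, such as Car4 (log2 fold change 1.07) and Marco (1.03), and 3 lower, Ear1 (-0.52), Ear2 and Siglecf (-0.21). Their sum, most of it Chil3, was 23700 to 28500 CPM in vehicle PBS, 22600 to 25000 in metformin PBS, 23500 to 25800 in vehicle PM and 25900 to 28600 in metformin PM. Of 13 genes that mark monocytes or macrophages derived from them, 6 passed the filter, of which Itgam (1.51), Mmp12 (2.01) and Mmp14 (4.57) were called higher, and Apoe (-0.57) and Ccr2 (-0.47) lower. Their sum was 69.9 to 87 CPM in vehicle PBS, 108 to 140 in metformin PBS, 102 to 121 in vehicle PM and 103 to 120 in metformin PM. Apoe alone held 88 to 117 CPM in metformin PBS and 43.4 to 58.9 in vehicle PBS. With PM it had 41.6 to 59.2 CPM on vehicle, overlapping PBS, and 39.4 to 58.5 on metformin. The fall of Apoe with PM thus lay in the metformin arm (-1.10, edgeR adjusted p = 2.23e-05). The PM effects of the arms differed by -1.06 (edgeR adjusted p = 0.00805), and metformin after PBS had 1.07 (edgeR adjusted p = 0.00122).

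Of 11 epithelial and stromal markers, the surfactant genes Sftpa1 (0.99), Sftpb (0.87) and Sftpc (0.77) and the endothelial gene Pecam1 (0.71) were called higher and Epcam (-0.38) lower. Within the arms, the surfactant genes (1.51, 1.26 and 1.23) and Pecam1 (1.13) were called on metformin only. On vehicle the PM and PBS groups of each overlapped, as for Sftpc with 18.8 to 30.7 CPM after PBS and 17.2 to 44.4 after PM. The 11 markers summed to 152 to 186 CPM in vehicle PBS, 169 to 232 in metformin PBS, 144 to 196 in vehicle PM and 197 to 253 in metformin PM. Much of these sums was Epcam, with 102 to 130, 121 to 175, 81.5 to 96.1 and 93.1 to 121 CPM in the same order. Of 12 lymphocyte markers 2 passed the filter, Igkc (2.73) and Jchain (3.29), both called higher. That list summed to 1.42 to 2.66, 1.08 to 2.07, 3.25 to 8.86 and 2.8 to 8.69 CPM in the same order. Of 10 neutrophil markers 4 passed the filter and Csf3r (-0.30) was called lower. Ly6g, Retnlg and Camp were at 0 in every library, while the list summed to 65.8 to 82.7, 61.9 to 65.3, 58.5 to 65 and 65.8 to 66 CPM, largely Mmp8 and Csf3r. Of 7 dendritic cell markers 1 passed and was not called, and the sums lay between 5.95 and 12.3 CPM. Among the alveolar macrophage markers called higher, Mrc1 (0.096) lost its call in 18 of 21 alternative settings. The calls of Ccr2 and Csf3r were each lost in 10 of 21 alternative settings and those of Sftpb and Pecam1 without vehicle PM 3 (0.62 and 0.58, edgeR adjusted p = 0.0852 and 0.0639). The part of these markers in the results on the proteasome genes was not tested. In sorted populations, a change in the mix of cells and a change in RNA per cell cannot be told apart.

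The core and cap genes were all well expressed, apart from the tissue-specific ones. Levels between genes were compared per kilobase of the principal mRNA in GENCODE M21, and each value is the mean over 13 libraries with its SD. The highest alpha ring gene was Psma6 at 115 ± 6.75 CPM per kb. The highest beta ring gene was Psmb6 at 109 ± 9.49, next to Psmb5 at 106 ± 12, and these do not differ beyond their spread. Psmb1 was the lowest standard beta gene at 62.2 ± 3.37. Among the ATPases of the base, levels ran from Psmc6 at 32.8 ± 1.65 to Psmc3 at 71.1 ± 3.4 CPM per kb. The scaffold subunit Psmd2 had 89 ± 5.06 and its partner Psmd1 45.2 ± 2.54. Lid levels ran from Psmd11 at 26.2 ± 1.3 to Psmd8 at 91.3 ± 7.42.

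Genes outside the standard particle were lower, except Psmb8 and Psmb10. The base-assembly chaperones Psmd5, Psmd9 and Psmd10, which carry Psmd symbols but leave the finished particle, had 6.47, 9.28 and 22.1 CPM per kb. Psma8, an alpha subunit known from testis, had 1.65 ± 0.536, and Psmb11 had 0.0643 ± 0.0475. Of the immunoproteasome genes, Psmb8 had 65.5 ± 2.88 CPM per kb, within the range of the standard beta genes. Psmb10 had 54.7 ± 3.74, below the lowest of these, and Psmb9 22.7 ± 2.22, below all 31 subunits of the standard particle. Those 31, Psma8 and the chaperones left out, spanned 4.39-fold from the lowest to the highest. Per kilobase of the deposited length, which is 0.32 to 7.52 times the principal mRNA, the same genes spanned 24.8-fold. On that scale Psma2, Psmb5, Psmc1, Psmd2, Psmd7 and Psmd10 led their groups, and the lowest were Psma8, Psmb3, Psmc3, Psmd4, Psmd11 and Psmd5, so the order between subunits depends on the length used. How the deposited length was counted is not given. For Psmb6 it is 3107 bases, longer than the gene from start to end (chr11:70525367-70527858), so some bases are counted more than once. Levels per kb of the deposited length are therefore less certain than those per kb of mRNA.

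**Figure D1:**
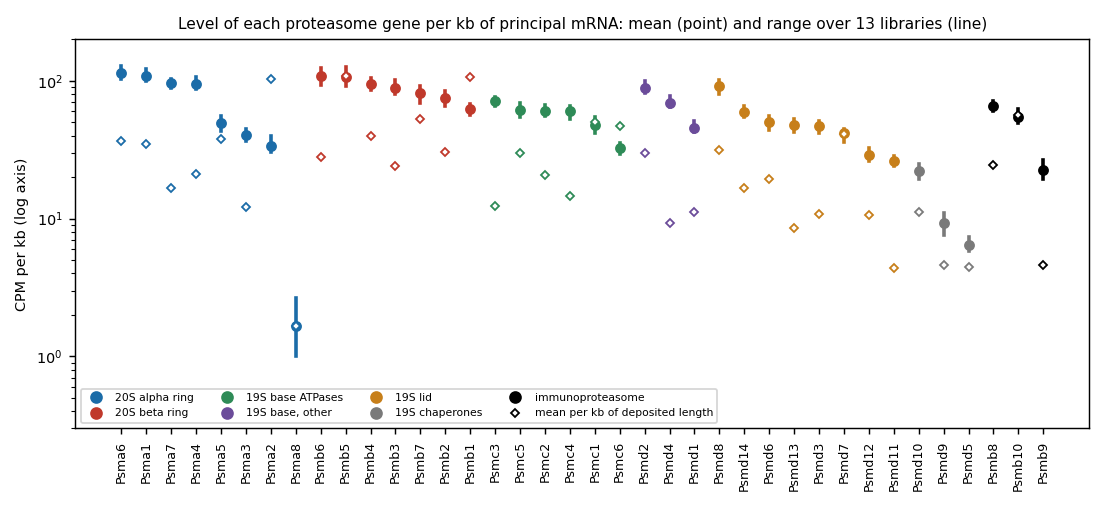
Level of each proteasome gene that passed the filter, in CPM per kb on a log axis, by part of the particle. Filled points are means over 13 libraries per kb of principal mRNA, lines run from the lowest to the highest library, and open diamonds give the mean per kb of the deposited length; Psma6 leads at 115 and the chaperones and Psma8 lie lowest.

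The first comparison asks what the PM did to the proteasome genes. A gene is called when its adjusted p in edgeR's quasi-likelihood test (Benjamini-Hochberg over the 11906 genes tested) is under 0.05. With PM against PBS averaged over the drinking-water arms, 8 of the 35 subunit genes rose and 0 fell, against 8.63% of all genes tested called higher and 7.76% called lower. All 35 fitted log2 fold changes were above 0, against 50.5% of all genes tested. The median was 0.091 against 0.002 over all genes tested. The changes were small: called genes rose by 9.91% to 15.9%. By part of the particle, 4 of 7 standard beta genes, 2 of 6 ATPases and 2 of 8 lid genes were called, with medians of 0.186, 0.104 and 0.07. In the alpha ring 0 of 8 were called (2 at an unadjusted p under 0.05, median 0.092), and of the 3 other base genes and the 3 chaperones 0 were called (1 and 0 unadjusted, medians 0.076 and 0.064). Whether the parts differ from each other was not tested.

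**Figure D2:**
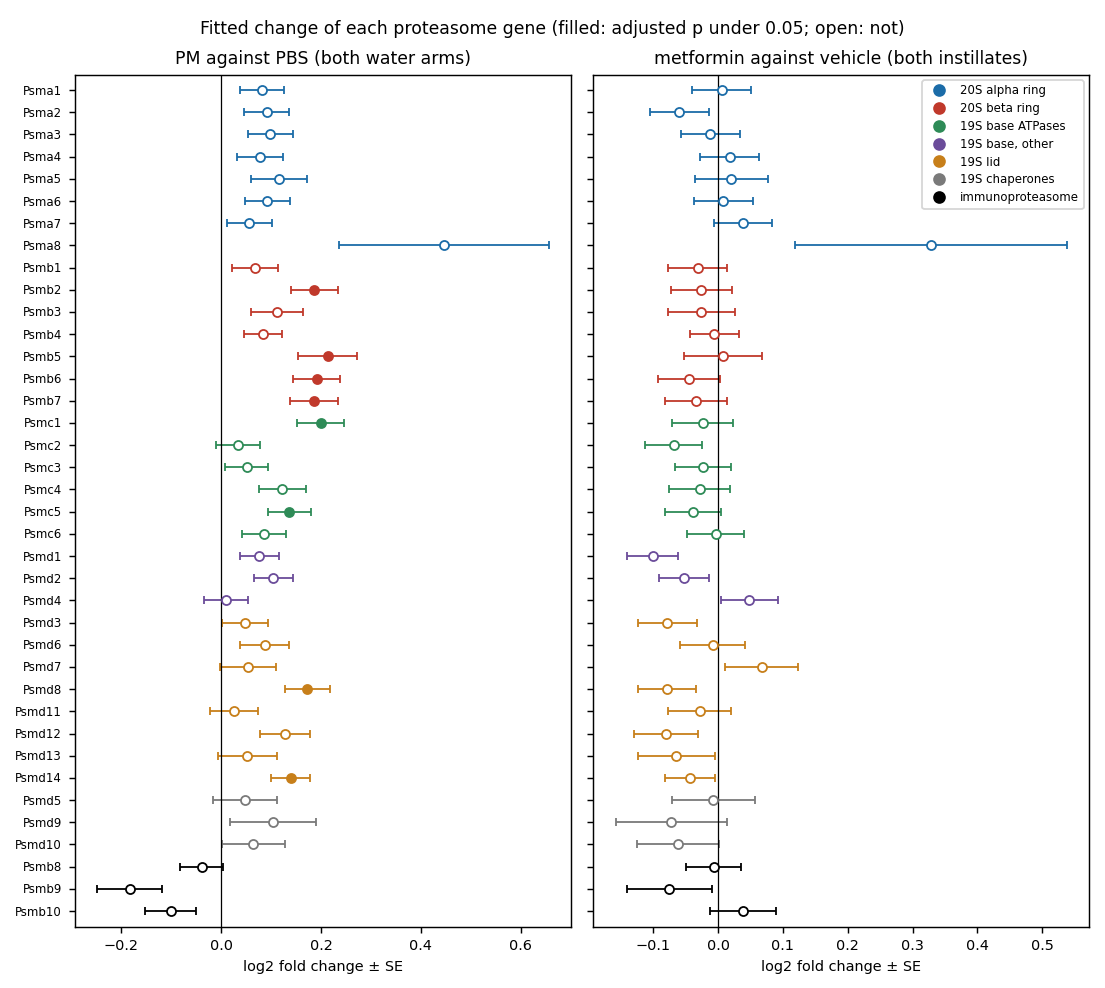
Fitted log2 fold change (point) and its standard error (bar) of each tested proteasome gene, for PM against PBS on the left and metformin against vehicle on the right, each averaged over the other factor; the axes differ in scale. Filled points have an adjusted p under 0.05: 8 subunit genes with PM, all to the right of 0, and 0 with metformin, while the 3 immunoproteasome genes lie left of 0 with PM.

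The 3 standard catalytic genes were among those called. Psmb5 (ENSMUSG00000022193, chr14:54614120-54617995, mm10, minus strand), which carries the chymotrypsin-like site, had 97.8, 82.7, 82.3 and 82.2 CPM in vehicle PBS and 103, 82.3 and 88.9 in metformin PBS. With PM it had 99.3, 114 and 103 CPM on vehicle and 92.1, 103 and 107 on metformin. The vehicle groups did not overlap, and the metformin groups did. The averaged log2 fold change was 0.21 (SE 0.06, 95% interval 0.09 to 0.34, edgeR adjusted p = 0.0193). It was 0.29 on vehicle (SE 0.08, edgeR adjusted p = 0.0495) and 0.14 on metformin (SE 0.09, edgeR adjusted p = 0.348). Without any of vehicle PM 2, metformin PBS 3 or 4, or metformin PM 3 or 4, the averaged call was lost, with adjusted p of 0.0511 to 0.069.

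Psmb6 (ENSMUSG00000018286, chr11:70525367-70527858, plus strand), of the caspase-like site, had 91.2, 82.3, 83.2 and 81.5 CPM in vehicle PBS and 85.3, 76.3 and 74.1 in metformin PBS. With PM it had 90.3, 99.8 and 87.1 CPM on vehicle and 91.1, 96.4 and 93.2 on metformin. Here the metformin groups stood apart and the vehicle groups overlapped, the reverse of Psmb5. The averaged log2 fold change was 0.19 (SE 0.05, edgeR adjusted p = 0.00935), with 0.13 on vehicle and 0.25 on metformin (edgeR adjusted p = 0.347 and 0.0212). Psmb7 (ENSMUSG00000026750, chr2:38588036-38644087, minus strand), of the trypsin-like site, had 92.7, 89.6, 87.5 and 84.7 CPM in vehicle PBS and 98.5, 106 and 105 in vehicle PM. In metformin PBS it had 97.4, 80.8 and 87.6 CPM, and in metformin PM 97.3, 104 and 93.7, so that the groups overlapped in this arm. The averaged log2 fold change was 0.19 (SE 0.05, edgeR adjusted p = 0.0106).

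**Figure D3:**
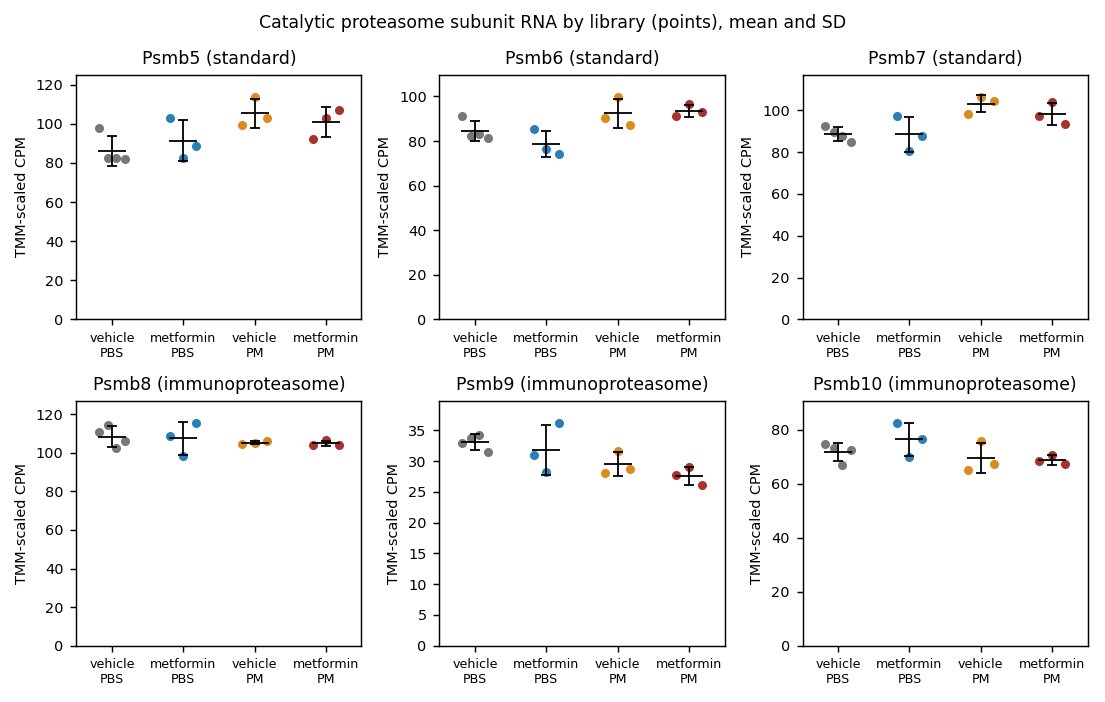
CPM of the standard catalytic genes (upper row) and their immunoproteasome counterparts (lower row) in every library by group, with the group mean and SD; axes start at 0. Group means of Psmb5, Psmb6 and Psmb7 are higher in the PM groups than in the PBS groups of the same arm, while those of Psmb8, Psmb9 and Psmb10 are lower.

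The remaining 5 called genes lay in the beta ring, the base and the lid. Psmb2, a structural beta subunit, had 65.8, 61.1, 59.6 and 56.4 CPM in vehicle PBS and 57.6, 60.9 and 62.1 in metformin PBS. With PM it had 70.6, 72.3 and 66.2 CPM on vehicle and 70.6, 66.9 and 66.3 on metformin. The PM and PBS groups of Psmb2 did not overlap in either arm, and the averaged log2 fold change was 0.19 (SE 0.05, edgeR adjusted p = 0.00933).

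Psmc1, an ATPase of the base, had 78.8, 75.7, 69.2 and 74.5 CPM in vehicle PBS and 77.3, 85.2 and 77.2 in vehicle PM. In metformin PBS it had 71.9, 67.1 and 66.5 CPM and in metformin PM 79.4, 87 and 86.2. The groups stood apart on metformin and overlapped on vehicle. The averaged log2 fold change was 0.20 (SE 0.05, edgeR adjusted p = 0.00561), the lowest adjusted p among the members. It was 0.30 on metformin (edgeR adjusted p = 0.00611) and 0.10 on vehicle (edgeR adjusted p = 0.485), and the difference of 0.20 between these effects was not called (SE 0.09, unadjusted p = 0.0467, edgeR adjusted p = 0.419).

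Psmd8, a lid subunit, had 148, 129, 139 and 132 CPM in vehicle PBS, 149, 157 and 152 in vehicle PM, 135, 126 and 124 in metformin PBS and 134, 150 and 154 in metformin PM. Only the vehicle groups were apart, and the averaged log2 fold change was 0.17 (SE 0.04, edgeR adjusted p = 0.0115). Psmd14, the deubiquitinase that cuts ubiquitin chains off the substrate, had 84 to 93.9 CPM in vehicle PBS and 95.6 to 101 in vehicle PM. On metformin it had 86.2 to 87.7 CPM after PBS and 93.5 to 95.4 after PM. Its groups did not overlap in either arm, and the averaged log2 fold change was 0.14 (SE 0.04, edgeR adjusted p = 0.0198). Psmc5, a further ATPase, had 0.14 (SE 0.04, edgeR adjusted p = 0.0354). The calls of Psmd14 and Psmc5 were lost in 5 and 13 of 21 alternative settings. For Psmd14 these were no low-count filter, DESeq2 and leaving out vehicle PM 2, vehicle PM 3 or metformin PM 3 (adjusted p 0.0543 to 0.073). Psmb2, Psmb6, Psmb7, Psmc1 and Psmd8 were called in all 21.

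Within each arm few subunits passed the test. On vehicle 1 of 35 was called higher, Psmb5, a share of 2.86% against 2.6% of all genes tested. On metformin 2 of 35 were called higher, Psmc1 and Psmb6, a share of 5.71% against 7.18% of all genes tested. Both shares are near those of all genes. The call of Psmb5 on vehicle was lost in 14 of 22 alternative settings. It was lost on leaving out vehicle PM 1, 2 or 3 (adjusted p 0.0592 to 0.259), vehicle PBS 2, 3 or 4 (0.114 to 0.131), metformin PBS 4 or metformin PM 3 or 4 (0.0599 to 0.0638). That of Psmb6 on metformin was lost on leaving out metformin PBS 3 or 4 or metformin PM 3 or 4 (adjusted p 0.0589 to 0.119). Psmc1 on metformin was called in all 22 settings.

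The direction was shared by most members all the same. Fitted changes were above 0 for 33 of 35 subunits in each arm, with a median log2 fold change of 0.101 on vehicle and 0.08 on metformin. In both arms at once, 31 of 35 subunits (88.6%) were above 0 and 0 below, against 32.4% of all genes tested above 0 in both. The arms share no library. Across the 35 subunits the effects in the arms had a Pearson correlation of 0.32 (Spearman 0.26), and of 0.18 (0.19) without Psma8, a description across genes that share libraries. The size order of the subunits was thus only weakly alike between arms. Psma2, for example, had 0.18 on vehicle and 0.00 on metformin.

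**Figure D4:**
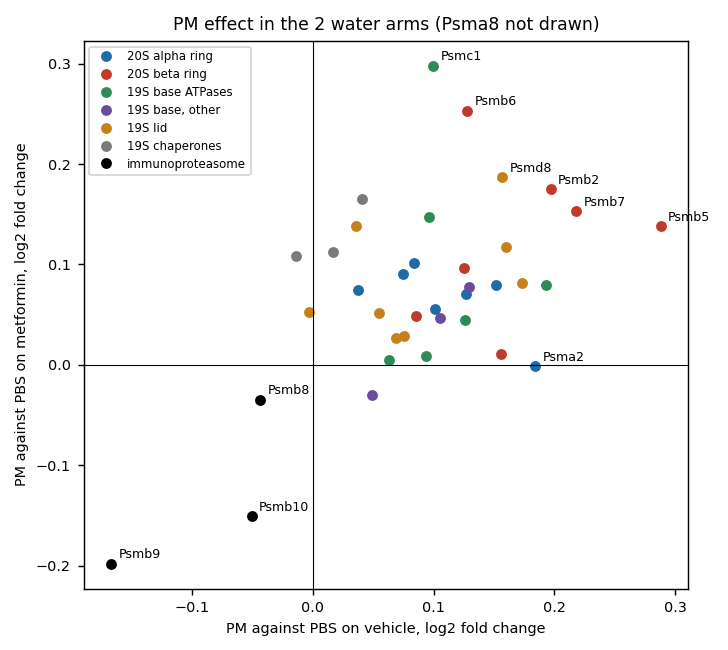
Log2 fold change of each tested proteasome gene with PM on vehicle (x axis) against that on metformin (y axis), coloured by part of the particle; Psma8 (0.22 and 0.68) lies outside the range drawn. Most subunits fall in the upper right of the plot, and the 3 immunoproteasome genes in the lower left.

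The sum over the subunits showed the same spread by library. The 36 subunit genes took 0.3% to 0.324% of the counts in vehicle PBS, 0.3% to 0.319% in metformin PBS, 0.324% to 0.341% in vehicle PM and 0.317% to 0.328% in metformin PM. The title-number 1 libraries of the PBS groups were high within their groups. In vehicle PBS 1 the 34 tested genes other than Psma8 lay on average 0.067 log2 units above the group's own mean level. In metformin PBS 1 they lay 0.063 above that same level, against -0.065 to 0.017 in the other 5 PBS libraries and 0.051 to 0.157 in the 6 PM libraries. On this measure the number 1 PBS libraries reached into the PM range. Leaving out vehicle PBS 1 or metformin PBS 1 is among the alternatives under which the averaged median stayed between 0.07 and 0.101.

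Metformin moved none of the subunits past the threshold. After PBS 0 of 35 were called by edgeR, DESeq2 or limma-voom (0 at an unadjusted p under 0.05), against 3.07% of all genes tested called in either direction. After PM 0 of 35 were called by each of these tools (2 lower unadjusted by edgeR), against 6.89%. Averaged over the instillates 0 of 35 were called by each (1 lower unadjusted), against 10.8%. The fitted changes leaned below 0. They were above 0 for 13 of 35 subunits after PBS (37.1%, against 49% of all genes tested) and 10 of 35 after PM (28.6%, against 48.9%). Averaged, 9 of 35 were above 0 (25.7%, against 49%). Medians were -0.014, -0.04 and -0.026, against -0.004 over all genes tested in each comparison. The lowest was the base scaffold subunit Psmd1, with an averaged log2 fold change of -0.10 (95% interval -0.18 to -0.02, edgeR adjusted p = 0.102). For the catalytic genes the 95% intervals of the averaged metformin effect were -0.12 to 0.13 for Psmb5, -0.14 to 0.06 for Psmb6 and -0.13 to 0.07 for Psmb7. The difference of the PM effects between metformin and vehicle was called for 0 of 35 subunits by each tool (1 higher unadjusted by edgeR, Psmc1), against 1.44% of all genes tested. The lack of calls for this difference does not show that metformin had no effect on the PM response. The median SE of the difference was 0.092 log2 units, as large as the PM effect itself.

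Psma8 was the member with the largest fitted change and the least certain one. It had 1.91 to 2.98 CPM in vehicle PBS, 1.69 to 3.77 in metformin PBS, 2.12 to 2.95 in vehicle PM and 3.35 to 4.51 in metformin PM, which are 11 to 31 counts in a library. The averaged log2 fold change with PM was 0.45 (SE 0.21, edgeR adjusted p = 0.16). It was not called in any comparison.

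The immunoproteasome genes were not called with PM, and their fitted changes lay below 0. Psmb8 (ENSMUSG00000024338, chr17:34197721-34201454, plus strand) had 111, 115, 102 and 106 CPM in vehicle PBS and 109, 98.4 and 115 in metformin PBS. It had 105, 105 and 106 CPM in vehicle PM and 104, 106 and 104 in metformin PM, within the range of the PBS libraries. Psmb9 (ENSMUSG00000096727, chr17:34181988-34187764, minus strand) had 32.9, 33.8, 34.3 and 31.4 CPM in vehicle PBS and 30.9, 28.2 and 36.2 in metformin PBS. With PM it had 28.1, 31.7 and 28.8 CPM on vehicle and 27.8, 29 and 26.1 on metformin, and the groups overlapped in both arms. Psmb10 (ENSMUSG00000031897, chr8:105935728-105938392, minus strand) had 74.9, 73.2, 67 and 72.5 CPM in vehicle PBS and 65.3, 75.7 and 67.3 in vehicle PM. On metformin it had 82.5, 70.1 and 76.7 CPM after PBS and 68.3, 70.8 and 67.2 after PM.

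Averaged over the arms, the log2 fold changes with PM were -0.04 for Psmb8 (SE 0.04, edgeR adjusted p = 0.601), -0.18 for Psmb9 (SE 0.07, edgeR adjusted p = 0.0644) and -0.10 for Psmb10 (SE 0.05, edgeR adjusted p = 0.195). Over the 7 comparisons 0 immunoproteasome values were called by edgeR, DESeq2 or limma-voom (1 at an unadjusted p under 0.05, Psmb9 with PM averaged). All 3 averaged values were below 0 in each of 21 alternative settings. Psmb9 was called lower in 4 of these: with no scaling, with a stricter low-count filter, without metformin PBS 3 (-0.22, adjusted p = 0.0278) and without vehicle PM 2 (-0.22, adjusted p = 0.0455). With metformin the averaged values were -0.01, -0.08 and 0.04.

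Because the counterparts exchange places in the same particle, their balance was also read within each library, where scaling between libraries does not enter. The ratio of the summed CPM of Psmb8, Psmb9 and Psmb10 to that of Psmb5, Psmb6 and Psmb7 was 0.775, 0.87, 0.805 and 0.846 in vehicle PBS and 0.778, 0.822 and 0.911 in metformin PBS. It was 0.687, 0.663 and 0.686 in vehicle PM and 0.714, 0.68 and 0.673 in metformin PM. Every PM library was below every PBS library. The difference of the mean log2 ratios was -0.28 in each arm, against a within-group SD of 0.074 over all groups. Within metformin PBS the SD was 0.116, and metformin PBS 4 lay highest (log2 ratio -0.135, against -0.363 and -0.283). Part of the difference on metformin thus rests on that library. The metformin groups lay 0.02 above the vehicle groups after either instillate, with overlap. These ratios are a description with no test, since the genes were chosen with earlier results known.

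Each exchange pair showed the same direction. Psmb9 over Psmb6 ran from 0.361 to 0.412 in vehicle PBS and from 0.311 to 0.33 in vehicle PM. On metformin it ran from 0.363 to 0.489 after PBS and from 0.28 to 0.305 after PM. The value of 0.489 was metformin PBS 4, against 0.363 and 0.37 in the rest of its group. After PM the metformin group of this pair thus lay below the vehicle group without overlap, with a difference of the mean log2 ratios of -0.11. This pair after PBS, and the other pairs after either instillate, overlapped between metformin and vehicle. Psmb10 over Psmb7 ran from 0.765 to 0.875 in the PBS libraries and from 0.643 to 0.718 in the PM libraries. Psmb8 over Psmb5 ran from 1.13 to 1.38 in vehicle PBS and from 0.922 to 1.05 in vehicle PM. On metformin the ranges of this last pair overlapped, with 1.06 to 1.3 after PBS and 0.975 to 1.13 after PM. By construction the log2 ratio combines a higher denominator, whose genes were called, with a lower numerator, whose genes were not.

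**Figure D5:**
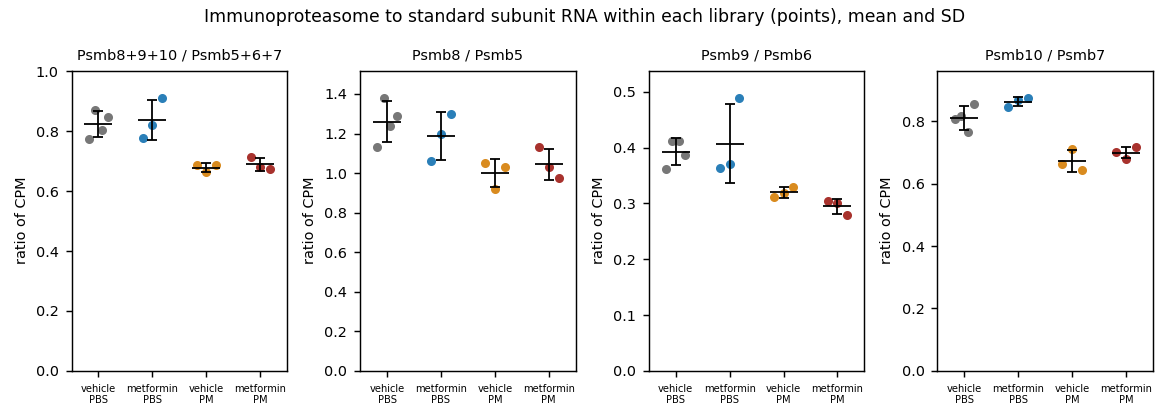
Ratio of CPM of immunoproteasome to standard catalytic genes within each library (points) by group, with mean and SD, for the sum of all 3 and for each exchange pair; axes start at 0. The summed ratio lies at 0.775 to 0.911 in the PBS libraries and 0.663 to 0.714 in the PM libraries.

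Promoter sequence was read for the members that a RefSeq table (GRCm38.p6) covers, 32 of 39, as the 250 bases before the annotated start. It is shown for the catalytic genes Psmb5 and Psmb6 and for Psmc1, whose RNA rose with PM, and for Psmb10, an immunoproteasome gene that was not called. Capitals mark a match, on either strand, to TGACNNNGC (the core of the antioxidant response element, which NRF1 and NRF2 bind) or to CCAAT (the box bound by NF-Y), and each sequence runs 5′ to 3′ on the gene's strand.
Psmb5, chr14:54617996-54618245, minus strand: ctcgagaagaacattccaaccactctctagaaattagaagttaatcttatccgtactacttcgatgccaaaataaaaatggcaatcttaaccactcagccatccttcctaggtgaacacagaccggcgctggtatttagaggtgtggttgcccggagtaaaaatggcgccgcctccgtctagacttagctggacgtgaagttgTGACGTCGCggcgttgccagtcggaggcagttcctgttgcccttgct
Psmb6, chr11:70525107-70525356, plus strand: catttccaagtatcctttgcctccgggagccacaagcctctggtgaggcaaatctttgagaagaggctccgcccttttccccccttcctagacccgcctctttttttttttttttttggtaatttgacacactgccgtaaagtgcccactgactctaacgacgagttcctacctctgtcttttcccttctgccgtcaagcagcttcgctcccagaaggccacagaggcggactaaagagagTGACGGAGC
Psmc1, chr12:100109952-100110201, plus strand: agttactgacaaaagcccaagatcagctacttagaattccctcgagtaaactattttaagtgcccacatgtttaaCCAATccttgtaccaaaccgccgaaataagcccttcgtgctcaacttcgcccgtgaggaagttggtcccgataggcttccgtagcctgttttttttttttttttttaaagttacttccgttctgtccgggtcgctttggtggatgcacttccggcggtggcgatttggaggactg
Psmb10, chr8:105938393-105938642, minus strand: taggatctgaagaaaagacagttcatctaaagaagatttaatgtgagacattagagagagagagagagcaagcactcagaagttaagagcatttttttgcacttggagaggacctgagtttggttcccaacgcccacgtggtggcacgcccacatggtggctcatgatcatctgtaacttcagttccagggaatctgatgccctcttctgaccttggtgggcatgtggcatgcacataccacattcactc
In Psmb5 the match TGACGTCGC ends 38 bases before the start, and in Psmb6 TGACGGAGC ends directly at it. Psmc1 holds only a CCAAT box, 170 bases before the start, and Psmb10 neither. The called genes Psmb2 and Psmb7 have no entry. Of the called genes not printed, Psmd14 holds a CCAAT box, and Psmc5 and Psmd8 hold neither motif.

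Over all members with an entry, TGACNNNGC was found in 5 of 29 subunit promoters (17.2%: Psmb5, Psmb6, Psmc6, Psmd9 and Psmd12), against 11.5% of the 27025 genes in the table. It was in 2 of the 6 called subunits that have an entry and in 3 of the 23 not called. CCAAT was in 12 of 29 (41.4%) against 37.5% of all genes. Of 2 interferon-related motifs, GAAANNGAA, the core of the interferon-stimulated response element, was in 3 of 29 subunits (10.3%) and 0 of 3 immunoproteasome genes, against 8.18% of all genes. The gamma-activated site TTCNNNGAA was in 0 of 29 subunits and in Psmb8 as TTCCCAGAA, 88 bases before the start, against 8.13% of all genes. Psmb9 held a CCAAT box, 3 bases before its start on the opposite strand. Of the 34 windows (2 genes have 2 each), 19 reach into the gene span of the deposited table and are not upstream of every annotated transcript. In 6 the window lies wholly inside it, those of Psmb8, Psmb9, Psmd5 and Psmd13 and 1 each of Psma6 and Psmc2, and of the printed Psmc1 window the last 16 bases do. A match is a description of letters, and nothing in these data shows binding.

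Other genes of the pathway were mostly not called. Of 35 genes for the remaining cap subunits, proteasome activators, core assembly chaperones, bound deubiquitinases, transcriptional regulators, ubiquitin and its carriers, 2 rose with PM averaged over the arms (5.71%, against 8.63% of all genes tested) and 0 fell (against 7.76%), with a median of 0.044. The genes called were Rps27a, which encodes ubiquitin fused to a ribosomal protein, and Mafg, a small Maf partner of NRF1 and NRF2. Rps27a had 192 to 197 CPM in vehicle PBS, 198 to 223 in metformin PBS, 217 to 244 in vehicle PM and 219 to 233 in metformin PM, and its averaged log2 fold change was 0.17 (SE 0.04, edgeR adjusted p = 0.00496). Mafg had 56.9 to 74.6, 65.5 to 81.5, 72 to 81.5 and 81.8 to 88.8 CPM in the same order and an averaged value of 0.25 (SE 0.06, edgeR adjusted p = 0.0102). Both calls held in all 21 alternative settings. Nfe2l1 itself (0.03, 95% interval -0.04 to 0.09) and Nfe2l2, which encodes NRF2 (-0.01, -0.09 to 0.06), were not called. Neither were the interferon-inducible activator genes Psme1 (-0.02, -0.12 to 0.08) and Psme2 (0.10, -0.01 to 0.21), nor the last cap subunits Adrm1 (0.05) and Sem1 (0.10).

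With metformin averaged over the instillates, 2 of these 35 genes were called higher (5.71%) and 1 lower (2.86%), near the 5.41% of all genes tested called in each direction. Sqstm1, the autophagy receptor p62, had 560 to 600 CPM in vehicle PBS, 609 to 742 in metformin PBS, 597 to 648 in vehicle PM and 647 to 679 in metformin PM, with a log2 fold change of 0.14 (SE 0.04, edgeR adjusted p = 0.0392). The ubiquitin shuttle Ubqln1 had 0.13 (edgeR adjusted p = 0.0422) and the shuttle Rad23b -0.12 (edgeR adjusted p = 0.0497). The call was lost in 10, 10 and 15 of 21 alternative settings for the 3 genes. Psme4, a nuclear activator of the core, was called only in metformin PM against its neighbours: 0.22 with PM on metformin (edgeR adjusted p = 0.0444) and 0.24 with metformin after PM (edgeR adjusted p = 0.0435), lost in 14 and 11 of 22. These comparisons share the metformin PM libraries.

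Of 11 MHC class I loading genes, which act downstream of the immunoproteasome, 2 fell and 2 rose with PM averaged over the arms (18.2% each, against 7.76% of all genes tested called lower and 8.63% higher). Tap2, a subunit of the peptide transporter, had -0.18 (SE 0.05, edgeR adjusted p = 0.0246) and H2-D1, a class I heavy chain, -0.14 (SE 0.04, edgeR adjusted p = 0.00894). The endoplasmic reticulum chaperones Calr and Pdia3, which serve many other proteins, both had 0.16 (edgeR adjusted p = 0.00892 and 0.0143). Tap1, the other transporter subunit, whose gene lies beside Psmb9, had -0.22 (SE 0.08, edgeR adjusted p = 0.0594). H2-D1 kept its call in all 21 settings and Tap2 in all but 4, those without metformin PBS 4, vehicle PM 1, vehicle PM 3 or metformin PM 1. Of 18 interferon response genes, 12 were tested, and 1 rose (Cxcl10, 1.26) and 1 was called lower (Cxcl9, -1.18), 8.33% each and near the share of all genes. The call of Cxcl9 was lost in 6 of 20 alternative settings. Metformin PBS 4 held 15.3 CPM of it against 2.39 to 7.05 in the other PBS libraries, and without that library the value was -0.58 (edgeR adjusted p = 0.152). Irf1 (0.28, edgeR adjusted p = 0.0978) was not called.

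Some counts are less certain because exons overlap those of another gene and the library kit keeps no strand. This holds for 11 of the 39 members by GENCODE M21. It also holds for 29 of the 129 genes of the other lists, among them Mafg, Rps27a, Sqstm1 and Tap2. Psmb7 shares 405 bases with Nek6, which had 9187 counts over all libraries against 8082 for Psmb7. Psmb9 shares 212 with Tap1 and Psmb8 shares 498 with the antisense transcript Gm20496. Psma4, Psma5, Psmb5, Psmc3, Psmd1, Psmd3, Psmd9 and Psmd13 also overlap another annotated gene, and the gene on Psmb5 (Mir686) had 0 counts.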

How the data were processed

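Polyadenylated RNA of sorted alveolar macrophages was sequenced as 13 libraries. Demultiplexing used bcl2fastq (2.19), alignment to mm10 TopHat2 and counting HTSeq, per the submitters' processing notes. The deposited table holds raw counts per gene and library, per the file headers, with positions and lengths (Start, End and Length, other units) as the authors' annotation gives them. The annotation release and strand setting are not given in the sources used here.

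Gene IDs were paired with symbols from a name table (42462 of 43430). edgeR 4.0.16 (R 4.3.3) was fitted to all libraries with 1 coefficient per group, after filterByExpr (11906 genes kept) and TMM scaling, and the quasi-likelihood test gave 7 comparisons. P values were adjusted by Benjamini-Hochberg over all genes tested, with a threshold of 0.05. The pipeline was tested on simulated data. Replicates have separate numbers in their titles, not consecutive in the metformin groups, and were taken as separate mice. The 15 pairs within groups all differed beyond sampling noise (chi-square per degree of freedom 2.14 to 6.73). Members, gene lists and motifs were chosen with earlier results of these data known, so no p is given for a list or a ratio. Named genes are the called members, the catalytic and immunoproteasome genes, the highest and lowest member of each part by level per kilobase, and up to 4 called genes of each related list, with a few regulators and class I or interferon genes always named, of which 1 is not reported here. Others, such as Psma2 and Psmd1, were chosen after their values were seen. Alternatives were DESeq2 1.42.0, limma-voom (limma 3.58.1), other scalings and filters (none, or 5 CPM in 3 libraries), a fit of only the groups compared, the title number as a block, and each library left out in turn; the level per mRNA length was added after seeing the data. Figures used Matplotlib 3.10.9.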

Additional observations from a re-analysis of the deposited data

Results flagged for a closer look

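In vehicle PBS 1, 3 members stood apart from the other 3 libraries of that group. Psma4 had 114 CPM there against 104 to 105, Psmb5 97.8 against 82.2 to 82.7 and Psmd3 109 against 98.1 to 98.4. In each case the gap to the nearest library as a share of the group's range (0.867, 0.965 and 0.967) exceeded Dixon's critical value for a group of 4. The rule was applied to 38 genes in the vehicle PBS group, the only one with 4 libraries, and chance flags about 1 in 20. All 3 flags are the same library, which also held the highest mean subunit level of its group (0.067 log2 units above the group mean). Without it, the averaged PM effect of Psmb5 stayed called.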

How the results depend on the processing

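Counts of called subunits moved most where few were called. For PM on vehicle (1 called), the count was 0 with upper-quartile scaling, no scaling, the filter of 5 CPM in 3 libraries, limma-voom and the replicate block, and 2 with no filter or only the groups compared; leaving out each library gave 0 to 2. For PM on metformin (2 called), leaving out each library gave 1 to 4, and for PM averaged (8 called) 5 to 10, with 5 without vehicle PM 2 or metformin PM 3. Immunoproteasome calls (0) became 1, Psmb9, with no scaling and with the 5 CPM filter, and leaving out each library gave 0 to 1. The cause was not tested. All other settings left these counts within 1.5 times, and the metformin comparisons and the difference of PM effects at 0. The median PM effect of the subunits stayed above 0 in every setting (0.068 to 0.134 on vehicle, 0.05 to 0.106 on metformin, 0.07 to 0.101 averaged). The metformin median after PBS ran from -0.04 to 0.01. After PM (-0.073 to -0.011) and averaged over the instillates (-0.048 to -0.005) it stayed below 0 in every setting. The median of all genes stayed within -0.017 to 0.016. Over all genes tested, same-numbered libraries of different groups did not deviate together (16 pairs, correlations of -0.1 to 0.12). Pairs with other numbers had -0.15 to 0.14 (47 pairs). With 3 or 4 libraries a group, this check cannot show that the numbers are not a pairing. Under the block 7 subunits were called with PM averaged. The span of levels was 24.8-fold with the deposited length and 4.39-fold with mRNA length. With 3 or 4 libraries a group, a median SE of 0.046 limits the averaged effects.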
